A study of Mus musculus with 6 samples.

Results

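The GPR137 proteins and the Rag GTPases of the lysosome were examined in the liver of mice without arylsulfatase B, with folliculin and its partner as the other members of the same nutrient-sensing machinery. The 10 genes were Gpr137, Gpr137b, Gpr137b-ps, Gpr137c, Rraga, Rragb, Rragc, Rragd, Flcn and Fnip1, out of 19938 genes with a probe set of exactly 1 symbol. They were chosen because Gpr137b, Gpr137b-ps and Rragd differed between the genotypes on these same arrays, so the differences between genotypes below are a description of the members and not a test. Each of the 10 genes was read by 1 probe set, and none of those probe sets carried the same 6 values as another. Hepatic tissue came from 3 ARSB-null and 3 control mice, with 1 array per liver. All 6 animals were untreated males of 12 weeks, the ARSB-null ones homozygous on the C57BL/6J background and the controls C57BL/6J. The ARSB-null colony was bred from heterozygous animals, and the sources used here do not say that the controls were littermates, so genotype and colony cannot be told apart. Values are log2 signals, so a difference of 1 is a doubling of the linear signal, and probe sets of different genes cannot be compared in level.

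Rag GTPases work as pairs at the lysosomal surface, with RagA or RagB bound to RagC or RagD. When amino acids are plentiful, the pair recruits mTORC1, the kinase complex that promotes growth, and the pairs that hold RagC or RagD also present the transcription factors TFEB, TFE3 and MITF to it. Folliculin (Flcn) with its partner Fnip1 acts on RagC and RagD as a GTPase-activating complex, and GPR137B is a multipass lysosomal membrane protein that binds RagA and takes part in bringing mTORC1 to the lysosome. Genes of lysosomes and of this machinery, Rragd, Rragc and Flcn among them, are known targets of the MiT/TFE factors in other cells.

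Arsb itself, on the brighter of its probe sets, had log2 signals of 7.63, 7.46 and 7.64 in ARSB-null and 10.21, 10.23 and 10.21 in control liver, so the labels of all 6 arrays matched the targeted gene. The mean over 8 measured hepatocyte markers lay between 13.43 and 13.58 on every array, against array medians of 6.50 to 6.60. For Gpr137b, Gpr137b-ps, Rraga and Rragc both arrays numbered 4 were the lowest of their groups, and their differences are given with and without these arrays.

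The sequences before the annotated starts are shown because the members did not move alike, and because the E-box CACGTG is the core of the site that MiT/TFE factors bind in lysosomal genes. RefSeq windows of GRCm38.p6, from 250 bases before to 50 bases after a start, were found for 8 of the 10 members. Gpr137b and Gpr137b-ps, with the largest differences, had none, so the sequences do not cover them. The 8 members had 10 windows, as Gpr137 had 3 and each of the others 1. Of all 32851 such windows, 7.15% held CACGTG, which reads the same on both strands. It was present in the windows of Rragc, Rragb and Fnip1 and not in those of Rragd, Flcn, Rraga, Gpr137 or Gpr137c. The 250 bases before the start of Rragd (chr4:32982748-32982997, plus strand), its paralog Rragc (chr4:123917183-123917432, plus strand) and Flcn (chr11:59810040-59810289, minus strand) are printed 5′ to 3′ with CACGTG in capitals.
Rragd: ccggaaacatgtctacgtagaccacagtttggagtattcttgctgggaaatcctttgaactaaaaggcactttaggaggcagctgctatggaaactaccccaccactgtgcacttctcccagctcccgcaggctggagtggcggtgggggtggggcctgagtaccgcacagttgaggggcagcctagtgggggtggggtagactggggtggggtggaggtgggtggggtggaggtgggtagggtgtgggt
Rragc: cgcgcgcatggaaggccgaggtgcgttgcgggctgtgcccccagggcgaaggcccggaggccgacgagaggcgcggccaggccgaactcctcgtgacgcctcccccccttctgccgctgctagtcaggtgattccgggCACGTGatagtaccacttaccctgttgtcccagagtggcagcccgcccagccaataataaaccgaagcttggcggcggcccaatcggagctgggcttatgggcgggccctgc
Flcn: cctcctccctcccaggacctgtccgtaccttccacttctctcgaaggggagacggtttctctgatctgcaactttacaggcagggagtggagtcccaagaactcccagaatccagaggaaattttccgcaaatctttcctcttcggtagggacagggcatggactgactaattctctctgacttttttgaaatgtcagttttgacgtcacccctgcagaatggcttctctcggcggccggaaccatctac
The other CACGTG sites lay in the windows of Rragb, which had 3, and Fnip1, which had 1. They are given with 9 bases on each side, on the plus strand, in the order of their first base at -127 (chrX:153139822-153139845), -36 (chrX:153139913-153139936) and -3 (chrX:153139946-153139969) from the start of Rragb and at -75 (chr11:54438095-54438118) from that of Fnip1.
Rragb at -127: agcccgggcCACGTGatggcgggt
Rragb at -36: gggtagcggCACGTGacaggccct
Rragb at -3: gcaggttccCACGTGatcctggcc
Fnip1 at -75: gtttgctgcCACGTGatacggctc
All 5 sites, the one of Rragc at -112 included, continued as CACGTGA, which 3.77% of all windows held on either strand. Neither CATGTG (14.2% of all windows) nor the longer TCATGTGA that contains it (0.986%) was found in a window of a member. CAGGT, the letters the study followed in the promoter of GPNMB, was in 50.1% of all windows. Counted by gene rather than by window, it was found for 6 of the 8 members, the exceptions being Rragd and Fnip1. These are matches of letters in short windows and say nothing of whether a factor was bound.

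Gpr137b-ps, Gpr137b, Rragd and Flcn had more signal in every ARSB-null liver than in any control liver, and Gpr137 had less. Higher without overlap were thus 4 of 10 members, where 5.14% of all 35556 probe sets were so, and lower without overlap was 1 of 10, where 6.78% of all probe sets were so. The remaining 5 genes, Gpr137c, Rraga, Rragb, Rragc and Fnip1, overlapped between the genotypes. Over the 10 members the median difference (ARSB-null minus control, log2) was 0.08, with a range of -0.16 to 1.32, against a median of 0.00 over all probe sets. Without Gpr137b, Gpr137b-ps and Rragd the median of the other 7 was -0.05. None of the 10 was past an adjusted p of 0.05 by limma over all probe sets, a threshold that 0.0197% of the probe sets passed (0.00562% higher and 0.0141% lower). At an unadjusted p under 0.05 there were 4 higher members by limma and 0 lower (2.75% and 3.19% of all probe sets, or 5.94% in either direction). The sign was the same in all 3 pairs of mice of one number for 7 of 10 members, 3 of which were lower (Gpr137, Gpr137c and Rraga), and for 32.2% of all probe sets. By the one-way analysis of variance that the study's methods name, 1 member was past the adjusted threshold (0.00562% of all probe sets), and 4 were higher and 1 lower at the unadjusted one (2.65% and 3.91% of all probe sets by that test). Since the members were picked on this contrast, nothing is read from these counts. In whole liver, a change in the number of cells of a type cannot be told from a change of RNA per cell.

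**Figure D1:**
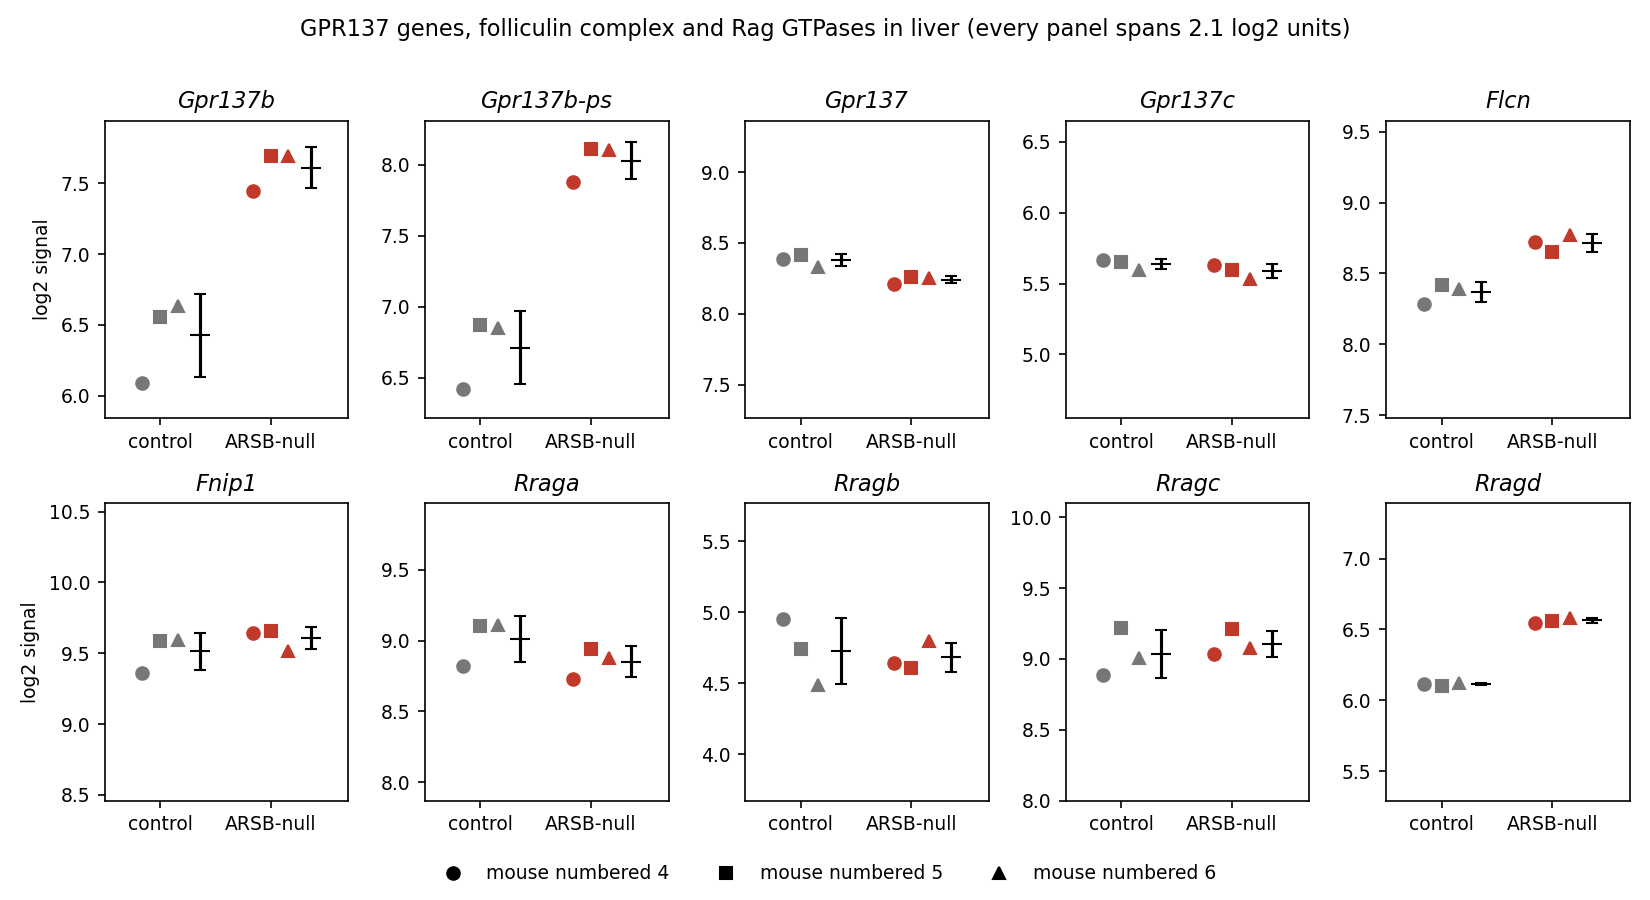
Log2 signal (vertical axis) of the 10 genes in each control (grey) and ARSB-null (red) liver, with a symbol for each mouse number; the bar beside each group is its mean and SD (n = 3). Gpr137b, Gpr137b-ps, Rragd and Flcn are higher in all 3 ARSB-null livers, while the other panels differ by 0.16 or less between the means.

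Among the GPR137 genes, Gpr137b-ps had the largest difference. Its log2 signal was 7.88, 8.11 and 8.10 in ARSB-null and 6.42, 6.87 and 6.85 in control liver, in the order of the mice numbered 4, 5 and 6. The means were 8.03 ± 0.13 and 6.71 ± 0.26 (SD, n = 3), which is 2.49-fold higher (log2 difference 1.32, SE 0.15). All ARSB-null arrays lay above all controls, with a gap of 1.01 between the nearest ones, and both arrays numbered 4 were the lowest of their groups. RefSeq annotates Gpr137b-ps as a transcribed pseudogene on chromosome 13, the chromosome of Gpr137b, with 22 annotated genes between them.

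Gpr137b, the protein-coding gene, followed closely. Its log2 signal was 7.44, 7.69 and 7.69 in ARSB-null and 6.09, 6.56 and 6.63 in control liver. The level was 2.27-fold higher (means 7.61 ± 0.14 and 6.43 ± 0.29, SD, n = 3; log2 difference 1.18, SE 0.17). Again no ARSB-null array reached down to the controls (gap 0.81), and the control numbered 4 was the lowest of the 6. Without both arrays numbered 4 the log2 difference was 1.10 for Gpr137b and 1.25 for Gpr137b-ps. The differences of Gpr137b-ps and Gpr137b lay within 1 SE of each other, but both come from the same arrays, so that SE does not measure their contrast. Within the mice of each number the difference of Gpr137b-ps was the larger (1.46, 1.24 and 1.26, against 1.35, 1.14 and 1.06). The pseudogene and the gene are related copies, and as probe sequences were not used here, signal shared between their probe sets cannot be told apart from 2 separate transcripts.

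The other genes of the family did not follow Gpr137b. Gpr137, the gene that gives the family its name, read 8.21, 8.26 and 8.25 in ARSB-null and 8.39, 8.41 and 8.33 in control liver. Every ARSB-null array was lower, but by a small margin, as the nearest arrays were 0.07 apart and the log2 difference was -0.14 (SE 0.09). Gpr137c read 5.63, 5.59 and 5.53 against 5.67, 5.65 and 5.60, a log2 difference of -0.05 (SE 0.09) with overlapping groups. Its signal was below the median of every array, and the files hold no detection calls, so it is not known whether this probe set was above background.

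Of the Rag GTPases, Rragd alone was separated by genotype. RagD is one of the alternative partners of RagA and RagB. Its log2 signal was 6.55, 6.56 and 6.58 in ARSB-null and 6.12, 6.10 and 6.12 in control liver, or 6.56 ± 0.02 against 6.11 ± 0.01 (SD, n = 3). The difference of 0.45 is 1.37-fold. It was much smaller than that of Gpr137b, but the arrays of each genotype were nearly identical, and only 0.0506% of all probe sets had a smaller pooled SD than its 0.014. The SE depended on that spread. From the arrays of Rragd alone it was 0.011, and in limma, which draws each spread toward that of all probe sets, it was 0.087. The mean signal of Rragd was itself below the array medians.

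Rragc, the closest relative of Rragd, read 9.04, 9.21 and 9.07 in ARSB-null and 8.88, 9.22 and 9.01 in control liver, with a log2 difference of 0.07 (SE 0.12). The groups overlapped, and the mice numbered 5 differed by -0.01. Without both arrays numbered 4 the difference of Rragc was 0.03. Rraga, the partner that GPR137B binds, read 8.73, 8.94 and 8.88 against 8.82, 9.10 and 9.11. Its difference was -0.16 (SE 0.12), and ARSB-null was the lower of the mice of each number, with overlap between the groups. Without both arrays numbered 4 it was -0.20. Rragb, which can take the place of Rraga in the pair, was dim and scattered, at 4.64, 4.61 and 4.80 against 4.96, 4.74 and 4.49 (difference -0.05, SE 0.14). Within the numbers it ran from -0.31 for the mice numbered 4 to 0.31 for those numbered 6.

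In the folliculin complex, Flcn was higher while Fnip1 overlapped between the genotypes. Flcn read 8.72, 8.65 and 8.77 in ARSB-null and 8.29, 8.42 and 8.39 in control liver. The means of 8.71 ± 0.06 and 8.37 ± 0.07 (SD, n = 3) differed by 0.35 (SE 0.10), or 1.27-fold, with 0.23 between the nearest arrays. Fnip1 read 9.64, 9.66 and 9.52 against 9.36, 9.58 and 9.60. Its difference was 0.09 (SE 0.11), and the 2 groups overlapped because ARSB-null 6 lay below the controls numbered 5 and 6. Fnip2, the other partner of folliculin, had a log2 difference of 0.14 (SE 0.13, adjusted p = 0.985 from limma).

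**Figure D2:**
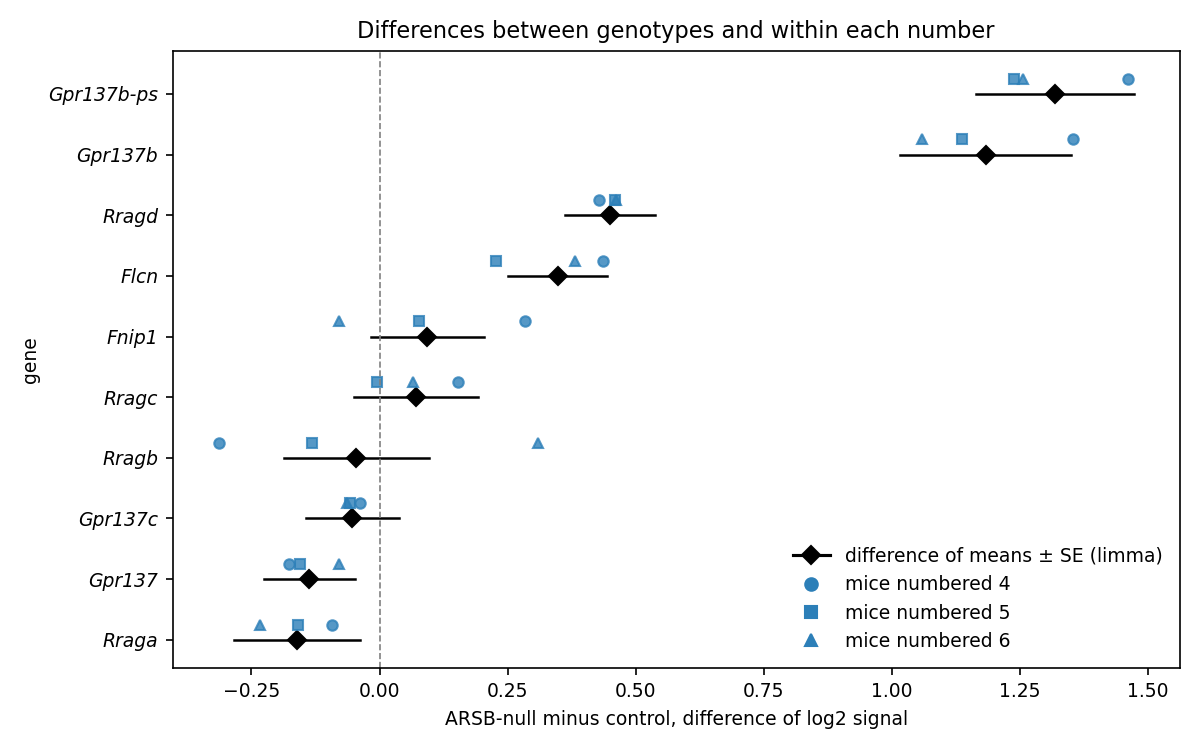
ARSB-null minus control difference of log2 signal (horizontal axis) for each gene (vertical axis); black diamonds are differences of means with SE from limma, and blue symbols are differences between mice of the same number. Gpr137b-ps and Gpr137b lie between 1.06 and 1.46 in every numbered pair, Rragd between 0.43 and 0.46, and Rragb runs from -0.31 to 0.31.

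The members also differed in how they varied among mice of one genotype. Gpr137b, Gpr137b-ps and Rraga shared a pattern inside the groups. After subtraction of the group means, the correlation over the 6 arrays was 0.99 between Gpr137b and Gpr137b-ps, 0.98 between Gpr137b and Rraga, and 0.98 between Gpr137b-ps and Rraga. Rragc followed it less closely, at 0.70 with Gpr137b, 0.79 with Gpr137b-ps and 0.80 with Rraga. In the same order Fnip1 was at 0.69, 0.67 and 0.69, and Flcn at 0.60, 0.62 and 0.46. Rragb (-0.69, -0.60 and -0.64) and Gpr137c (-0.69, -0.63 and -0.60) ran the other way. Both arrays numbered 4 set much of the pattern of Gpr137b, Gpr137b-ps, Rraga and Rragc. The control numbered 4 was 0.34 below its group mean for Gpr137b, 0.30 for Gpr137b-ps, 0.19 for Rraga and 0.15 for Rragc, and ARSB-null 4 was 0.17, 0.15, 0.12 and 0.07 below its own. Rragd showed nothing of that pattern, with every array within 0.02 of its group mean and a within-group correlation of 0.19 with Gpr137b. Fnip1 and Rragb ran against each other inside the groups (-0.89). These correlations rest on 6 arrays and on deviations that cancel within each group. They share the same normalization and are given without a test.

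**Figure D3:**
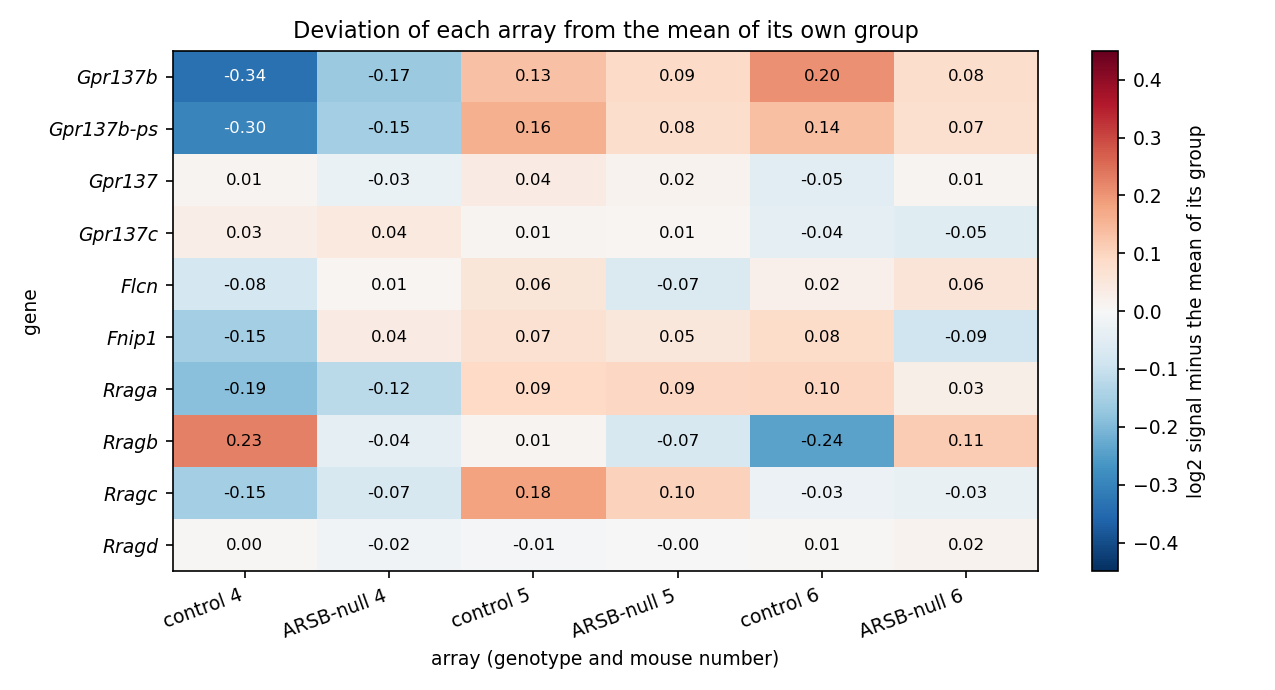
Log2 signal of each gene (rows) on each array (columns, ordered by mouse number) minus the mean of its own group, in log2 units, with colour and printed value giving the deviation. Gpr137b, Gpr137b-ps, Rraga and Rragc are below the group mean on both arrays numbered 4, and Rragd stays within 0.02 throughout.

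The genes most like Gpr137b-ps, Gpr137b and Rragd from array to array were ranked by Pearson correlation over the 6 arrays, among 18349 genes other than predicted genes, microRNAs and snoRNAs. For Gpr137b-ps these were Pde2a (a cyclic nucleotide phosphodiesterase), Smad7 (an inhibitor of TGF-beta signalling), Gpr137b, Agxt (the glyoxylate-detoxifying aminotransferase of hepatocytes) and Dctn1 (a subunit of the motor cofactor dynactin), with correlations of 0.995 to 0.999. The same genes led for Gpr137b, with Gpr137b-ps first. Their differences between genotypes were smaller than that of Gpr137b-ps, at 0.28 for Pde2a, 0.71 for Smad7, 0.51 for Agxt and 0.18 for Dctn1. With Gpr137b-ps they correlated at 0.96 or more after subtraction of the group means. As they were picked for high correlation on these same arrays, those values are no separate evidence of likeness. Gpnmb, the transmembrane glycoprotein the study followed, was first for Rragd (correlation 0.996, difference 3.25). Next, at 0.988 to 0.995, were Renbp (0.36), Inca1 (0.30), Rprl2 (0.48) and Chst15, a sulfotransferase that adds a 6-sulfate to chondroitin 4-sulfate (0.32), with their differences between genotypes in parentheses. Inside the groups Gpnmb and Rragd correlated at 0.10, far below the value over both genotypes together. Rragd hardly varied there (pooled SD 0.014, against 0.204 for Gpr137b-ps), so its value cannot be set against those for Gpr137b-ps. As Rragd was chosen on the difference between genotypes and varied little besides, the ranking for Rragd mostly reflects that difference. Correlations above 0.9 were common, with 211 genes for Gpr137b-ps, 199 for Gpr137b and 189 for Rragd, and Flcn was among them for all of these (0.97, 0.96 and 0.95). Inside the groups Flcn correlated at only 0.62 with Gpr137b-ps, 0.60 with Gpr137b and 0.05 with Rragd.

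The rest of the pathway was read from 83 genes in 8 lists, of which 80 were measured. None was past an adjusted p of 0.05 by limma, in either direction, or by the analysis of variance. At an unadjusted p under 0.05 limma gave 3 higher and 6 lower (the analysis of variance gave 5 and 8), beside 2.75% and 3.19% of all probe sets by limma and 2.65% and 3.91% by the analysis of variance. The median difference over the 80 was -0.03, with 33 means above and 47 below those of the controls. Without overlap between the genotypes, 5 of the 80 were higher and 14 lower, where 5.14% and 6.78% of all probe sets were so.

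Genes that hold or load the Rag GTPases differed little. Over 8 genes of Ragulator (the scaffold of the Rag GTPases at the lysosome) and other partners the median was -0.01, and the lowest p was that of Slc38a9, the lysosomal arginine sensor (-0.24, SE 0.11, adjusted p = 0.860 from limma), followed by the Ragulator subunit Lamtor3 (-0.14). Over 11 measured genes of GATOR1, GATOR2 and KICSTOR, the complexes that switch RagA and RagB, the median was -0.07, with Seh1l (-0.15), Kptn (-0.14) and Wdr24 (0.11) lowest in p and no gene past an unadjusted p of 0.05. Of 8 genes listed under amino acid sensing 6 had a lower mean (median -0.17). Castor2, of the CASTOR family, was at -0.28 (SE 0.10, adjusted p = 0.761 from limma) and the leucine sensors Sesn2 and Sar1b were at -0.26 each.

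In mTORC1 and its Rheb arm the median over 10 genes was -0.02, with Mlst8, a core subunit, at -0.26 (SE 0.10, adjusted p = 0.808 from limma), Tsc1, which restrains Rheb, at 0.18 and Deptor at -0.16. Its 8 measured substrates had a median of 0.08, with Atg13 of the autophagy initiation complex at -0.22, Maf1, the repressor of RNA polymerase III, at 0.19, and Grb10 at 0.10. All 4 MiT/TFE factors had a lower mean in ARSB-null liver (median -0.21), although none was past the adjusted threshold. Tfec was at -0.30 (SE 0.12, adjusted p = 0.837 from limma), Tfeb at -0.22 (SE 0.09, adjusted p = 0.839), Mitf at -0.20 (SE 0.15, adjusted p = 0.972) and Tfe3 at -0.04. For Tfeb the log2 signal was 7.62, 7.72 and 7.74 in ARSB-null and 7.87, 7.94 and 7.94 in control liver, without overlap. These are RNA signals. The paper reports more nuclear MITF protein in ARSB-null than in control liver, which arrays do not measure.

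The organelle these proteins sit on was mixed. Over 15 lysosomal membrane proteins the median was 0.01. Cd63, a tetraspanin, was at 0.87 (SE 0.19, adjusted p = 0.451 from limma), Npc1, the cholesterol exporter of lysosomes, at 0.27 and Clcn7, a chloride-proton exchanger, at -0.26. Over 16 measured subunits of the vacuolar ATPase, the proton pump that acidifies lysosomes and takes part in amino acid sensing, the median was -0.05 and 12 had a lower mean. Atp6v0d2, a subunit of macrophages and osteoclasts, stood out from the others at 1.34 (SE 0.37, adjusted p = 0.605 from limma), while Atp6v1h was at -0.40 and Atp6v0a2 at -0.30. The signal of Atp6v0d2 was 8.57, 8.63 and 8.90 in ARSB-null and 8.18, 7.27 and 6.61 in control liver, so its controls were spread widely.

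Cell type markers were read beside the members. Of 10 measured markers of lipid-laden macrophages 9 had a higher mean in ARSB-null liver (median 0.56), and 1, Gpnmb, was past the adjusted threshold (3.25, adjusted p = 0.000639 from limma). The mean log2 signal over that list was 7.94 to 8.05 on the ARSB-null arrays and 6.996 to 7.19 on the controls. Among them were Ms4a7 (1.39) and Atp6v0d2, which is on both lists. Among 13 genes that mark Kupffer cells and other macrophages 10 had a lower mean (median -0.14), and the list means overlapped between the genotypes (8.90 to 8.99 against 8.90 to 9.23), with Folr2 at -0.75 and Cd163 at -0.77. Cd68 (0.53) and C1qa (0.39) on the same list were higher in every ARSB-null liver than in any control. C1qb (-0.13) and C1qc (-0.14), also on it, had lower means with overlap between the genotypes. Over 8 hepatocyte markers the median was 0.03 (Pck1 0.21, Hnf4a -0.17). The medians were 0.03 over 8 endothelial markers (Lyve1 -0.31, Stab2 0.13), 0.11 over 8 stellate cell and fibroblast markers (Reln 0.24, Des 0.15) and 0.02 over 5 cholangiocyte markers (Sox9 -0.35, Cldn7 0.20). They were -0.02 over 8 osteoclast and melanocyte markers (Dct -0.37, Acp5 -0.21), -0.01 over 7 T and NK cell markers, 4 of them with a lower mean (Ncr1 0.29, Klrb1c 0.30, Cd3g -0.19), 0.07 over 5 B and plasma cell markers (Jchain 1.30, Cd79a -0.40), -0.21 over 5 neutrophil and monocyte markers (Ngp -0.50, Ccr2 -0.36) and -1.18 over 2 erythroid markers (Slc4a1 -1.56, Alas2 -0.81). Apart from Gpnmb no marker on these lists was past the adjusted threshold. Whether macrophages, or the lower erythroid signal, have a part in the values of Gpr137b, Gpr137b-ps, Rragd and Flcn was not tested.

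**Figure D4:**
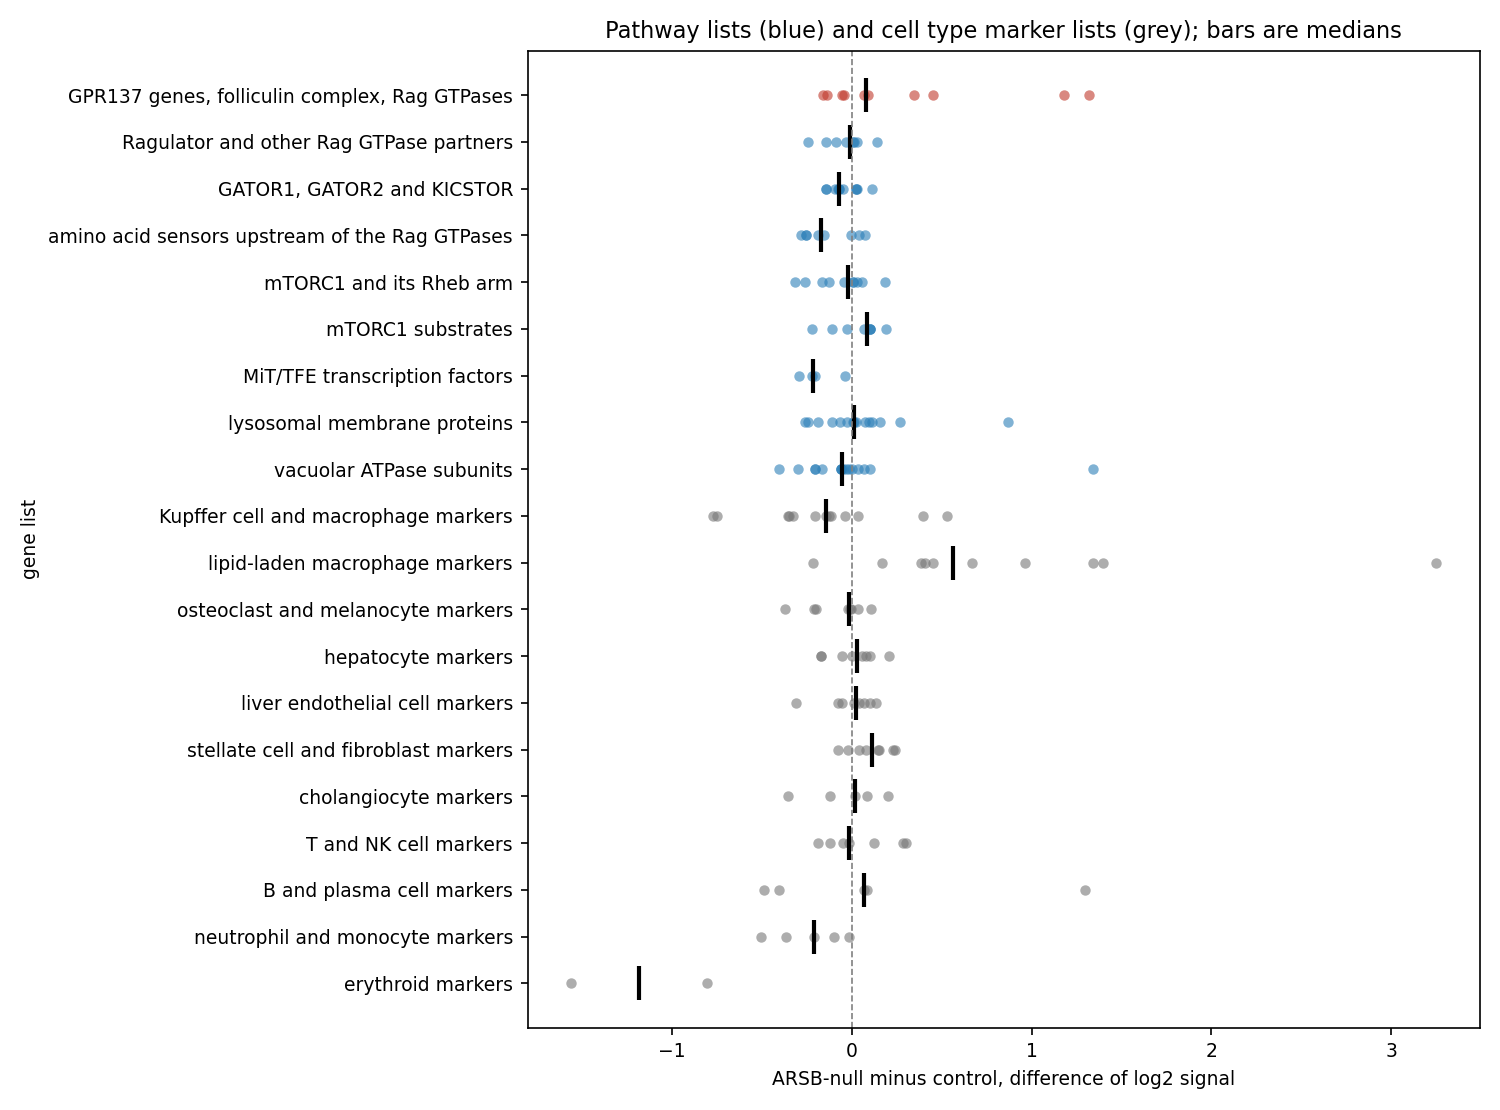
ARSB-null minus control difference of log2 signal (horizontal axis) for each gene of the lists on the vertical axis, with the 10 members in red, pathway lists in blue, cell type marker lists in grey and black bars for medians. The members' median is 0.08, the pathway medians lie between -0.21 and 0.08, and the lipid-laden macrophage markers have a median of 0.56.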

How the data were processed

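RNA of 6 livers was hybridized to whole-transcript mouse gene arrays. The authors applied quantile normalization and summarized probes into probe sets, and each deposited value is a log2 signal of a probe set on an array. RMA and Partek are the tools in the submitters' processing notes. Scanner files were not used here, and the array's genome build is not given in the sources used here. The paper names a second-generation array, whereas the probe set numbers match GEO's platform table for its predecessor. The members and lists were chosen with earlier results of these data known.

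Of 35556 probe sets 21789 had 1 symbol, 1621 several and 12146 none listed, and 0 symbols changed through the gene identifier. The brightest probe set stood for a gene. All probe sets were fitted with limma 3.58.1 in R 4.3.3 (lmFit, eBayes, two-sided, Benjamini-Hochberg over all probe sets). The sources name the samples as separate mice. The number of arrays limits the precision. The scripts were tested on simulated data.

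Mice of both groups are numbered 4, 5 and 6. Deviations from the group means correlated at 0.396, 0.159 and 0.193 for the mice of the same number, all above 0.1, so the number was used as a block in an alternative. ARSB-null 6 and control 5, of different numbers, correlated at 0.220. What a number stands for is not given in the labels.

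Besides the members, named genes were Arsb, up to 3 genes with the smallest p of each pathway list, 2 of each marker list and the 5 genes most like Gpr137b-ps, Gpr137b and Rragd. Tfe3, Cd68, C1qa, C1qb, C1qc and Cd3g were added after their values were seen. Alternatives were the analysis of variance, the block, another prior, array weights, repeated quantile normalization, centring on medians, other sets of probe sets and leaving out each array.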

Additional observations from a re-analysis of the deposited data

How the results depend on the processing

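The log2 differences of Gpr137b (1.02 to 1.29), Gpr137b-ps (1.17 to 1.40), Rragd (0.42 to 0.46) and Flcn (0.30 to 0.38) kept their direction under every alternative that gave a value (ranges without single pairs), as did those of Gpr137, Gpr137c and Rraga, and those of Rragb (-0.17 to 0.11), Rragc (-0.01 to 0.16) and Fnip1 (0.00 to 0.14) reached 0 or crossed it. The marker list medians that crossed 0 when an array was left out were those of osteoclast and melanocyte, hepatocyte, endothelial, cholangiocyte, T and NK cell, and B and plasma cell markers. Rragd, Rragb and Gpr137c were too dim for the set of probe sets above the median. Leaving out each array in turn gave 1.02 to 1.29 for Gpr137b, 1.17 to 1.40 for Gpr137b-ps and 0.44 to 0.46 for Rragd, with 0 members and 0 pathway genes past the adjusted threshold throughout. For Rragd, repeated quantile normalization gave 0.42 and centring on array medians 0.42, both further from 0.45 than its small spread between replicates. The number of members past the adjusted threshold was 0 higher in limma over all probe sets, 1 with the analysis of variance (Rragd), 1 with array weights (Gpr137b-ps), 1 among probe sets above the median signal (Gpr137b-ps), 2 among probe sets with 1 symbol (Gpr137b and Gpr137b-ps) and 2 among those with the replicate block as well, which was added later. The sets chosen by signal or symbol hold fewer probe sets, and limma estimated the spread anew in each. The cause of these changes in the number of calls was not tested. Of the probe sets used, 0.0197% were called by limma over all of them, 0.00562% by the analysis of variance, 0.0787% with array weights, 0.0675% above the median signal, 0.275% with 1 symbol and 0.486% with 1 symbol and the block. No pathway gene was past the adjusted threshold under any alternative run. With the replicate number as a block, the log2 difference of Gpr137b stayed 1.18 and its SE went from 0.17 to 0.10. No member or pathway gene changed its call. Whether mice of one number were paired is not known. Within the numbers, the pair numbered 4 gave a log2 difference of 0.43 for Rragd. Without both arrays numbered 4, an alternative added later, 0 members were past the threshold. Signal over background cannot be given without detection calls.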
